A study of Arabidopsis thaliana with 6 samples.

Results

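Xyloglucan endotransglucosylase/hydrolases (XTHs) are enzymes of the plant cell wall, and 9 of them, of 13350 genes named on the array, were followed here in Arabidopsis root protoplasts. The 9 are the genes that the array's annotation names with a symbol of XTH and a number, each from a probe set assigned to that gene alone. They are XTH16, XTH18, XTH19, XTH20, XTH21, XTH26, XTH29, XTH32 and XTH33, each with 1 probe set among the 22746 tested. The gene table used for names holds 33 loci of the family, so 24 were not members, and 1 of those 24 had a named probe set under another symbol.

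Expression was measured in protoplasts from nitrate-treated roots that carried a plasmid for HRS1 (also called AtNIGT1), a transcription factor of the GARP family, fused to the glucocorticoid receptor and driven by the CaMV35S promoter. In the +DEX group, transfected protoplasts received 10 µM dexamethasone (DEX), which lets the fusion protein enter the nucleus. The −DEX group received none, and both groups had 35 µM cycloheximide (CHX), a blocker of translation, and nitrate throughout. Cells were sorted by a red fluorescent protein on the plasmid, and each group gave 3 samples, each measured on 1 ATH1 array. Arrays of DEX-treated protoplasts without the fusion were not analysed here, so that an effect of DEX itself and one of HRS1 cannot be told apart. The labels do not say whether replicates came from separate preparations, so each p-value rests on how far these samples spread, and that spread may be technical.

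Xyloglucan is a branched sugar polymer that coats cellulose microfibrils in the wall. XTH enzymes cut a xyloglucan chain and join the new end to another chain, or, in some members, to water, which splits the chain for good. They are secreted and act in growing, newly made and remodelled walls. Protoplasts have had their walls digested away, so they are cells in which the substrate of these enzymes has been removed from the surface.

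Values are log2 intensities after the deposited intensities of each array were scaled to a common median. They are relative, and probe sets differ in how strongly they bind. The values of different genes were therefore not read as relative amounts of transcript. The ratio of XTH18 over XTH19 given below is read only for its change between the groups. A probe set was called above background on an array where it exceeded the 95th percentile of the 27 Bacillus control probe sets, which lay between 5.07 and 6.59 on the log2 scale. The −DEX replicate 1 array was the least like the rest: its Spearman correlations with the other 5 averaged 0.708, and those of each other array 0.777 to 0.822. Its ratio of 3′ to 5′ signal, a sign of RNA quality, was 18.6 for the ubiquitin control, against 5.45 to 8.85 on the other arrays, and 0.283 for the actin control, against 1.395 to 7.58. For the GAPDH control it was 2.12, against 2.31 to 3.66, and the part of these signs in the results was not tested. HRS1 is not named in the annotation used here, so its own transcript was not followed. As markers of root cell types, the root hair genes EXPA7 and EXPA18 lay at or under background on all 6 arrays, and so did AT1G62500, the cortex gene CO2. The second cortex gene, AT1G09750, was above background on 2 of 3 +DEX and 2 of 3 −DEX arrays. The markers fixed for the other root cell types and for shoot tissue had no named probe set.

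Transcripts of XTH18 and XTH19 were measured well above background on all 6 arrays, and the other 7 members were not. With DEX, XTH18 was higher and XTH19 lower on every array, without overlap between the groups, but neither difference passed the threshold over all probe sets. As each array holds RNA of many sorted cells, fewer cells of a type and less RNA per cell cannot be told apart. In all, 0 of the 9 members were called higher and 0 lower at a limma adjusted p under 0.05. At an unadjusted p under 0.05 there was 1 member, XTH19, which was lower. Over all tested probe sets 0.119% were called lower and 0% higher, and 4.11% were lower and 2.49% higher at an unadjusted p under 0.05.

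**Figure D1:**
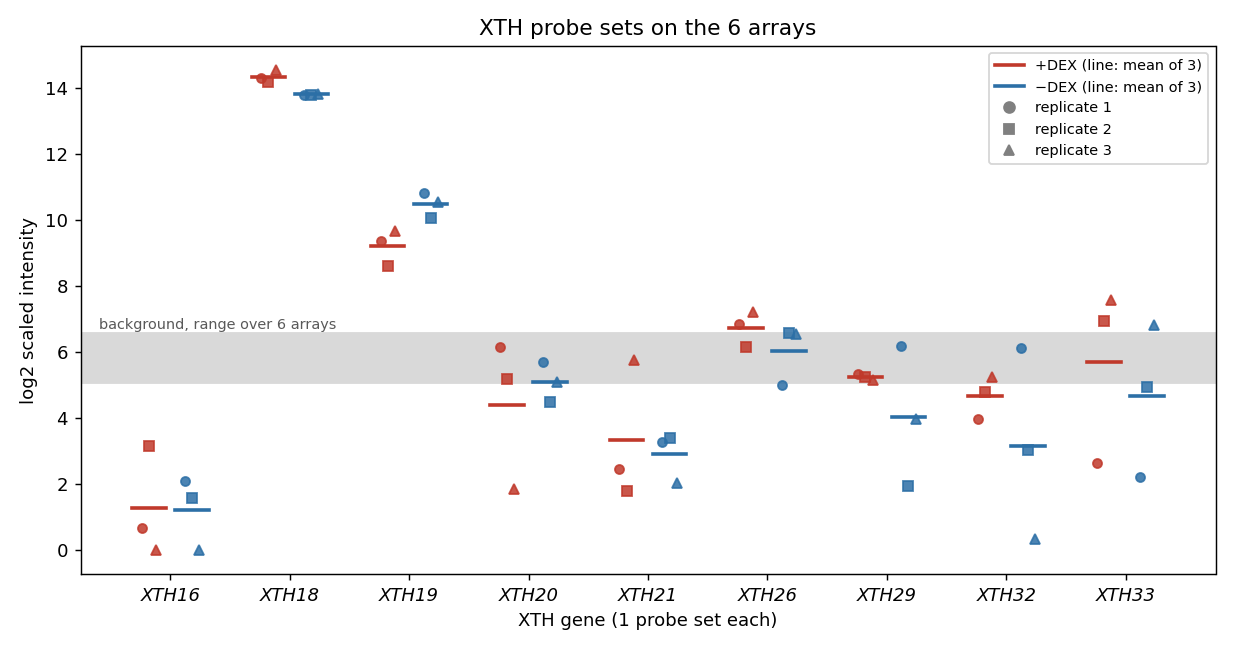
Log2 scaled intensity (vertical axis) of the 9 XTH probe sets on the +DEX arrays (red) and the −DEX arrays (blue), with a symbol for each replicate and a line at the mean of 3. The grey band spans the background level of the 6 arrays, from 5.07 to 6.59. XTH18 and XTH19 lie above the band on every array. The other 7 lie in or below it, apart from XTH26 and XTH33, which rise above it on some arrays, up to 7.22 and 7.57.

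XTH18 is a root-expressed member of the large branch of the family whose known enzymes join chains rather than hydrolyse them. Its log2 intensity was 14.31, 14.19 and 14.55 on the +DEX arrays, against 13.80, 13.79 and 13.84 on the −DEX arrays. The lowest +DEX array thus lay 0.354 above the highest −DEX array. As deposited, without further scaling, the intensity was 20156, 21732 and 25579 on the +DEX arrays, against 12823, 11773 and 16059 on the −DEX arrays, again without overlap. The means were 14.35 ± 0.18 with DEX and 13.81 ± 0.02 without (SD, n = 3 each). After scaling, the SD of the −DEX arrays was much smaller than that of the +DEX arrays. As deposited, the −DEX values were not this tight, from 11773 to 16059. The fit uses for both groups a spread drawn towards that of other probe sets at this level.

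The log2 difference of XTH18 was 0.54 ± 0.29 (SE), or 1.46-fold, with a 95% interval from −0.075 to 1.16 (limma adjusted p = 0.77). The size moved with the scaling, to 0.74 as deposited and 0.89 after quantile normalization (adjusted p = 0.74 and 0.55). Part of this movement is shared by all probe sets, whose median difference was −0.10 as scaled, 0.09 as deposited and 0.01 after quantile normalization. Set against that median, XTH18 was at 0.65, 0.65 and 0.88 in these 3 scalings.

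XTH19 is listed beside XTH18 in the TAIR10.1 assembly's gene table and belongs to the same closely related root group. Its log2 intensity was 9.38, 8.63 and 9.67 on the +DEX arrays, against 10.84, 10.06 and 10.55 on the −DEX arrays. All +DEX arrays were lower than all −DEX arrays, by 0.396 at the closest. As deposited, the intensity was 661, 459 and 863 on the +DEX arrays, against 1643, 886 and 1650 on the −DEX arrays, where the gap between the groups narrowed to that between 863 and 886.

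The means of XTH19 were 9.23 ± 0.54 with DEX and 10.48 ± 0.39 without (SD, n = 3 each). The log2 difference was −1.26 ± 0.53 (SE), or 2.39-fold lower, with a 95% interval from −2.39 to −0.12 (limma adjusted p = 0.75). The interval, which is not adjusted for the number of probe sets, lay below 0, and the adjusted p did not pass. The difference of XTH19 was −1.065 as deposited and −1.197 after quantile normalization. Set against the median of all probe sets, XTH19 was at −1.16 as scaled, −1.16 as deposited and −1.20 after quantile normalization. The first 2 of these agree by construction, as for XTH18, since those scalings differ only by a factor per array. Without −DEX replicate 1, the array that stood apart, the differences were −1.08 for XTH19 and 0.54 for XTH18.

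**Figure D2:**
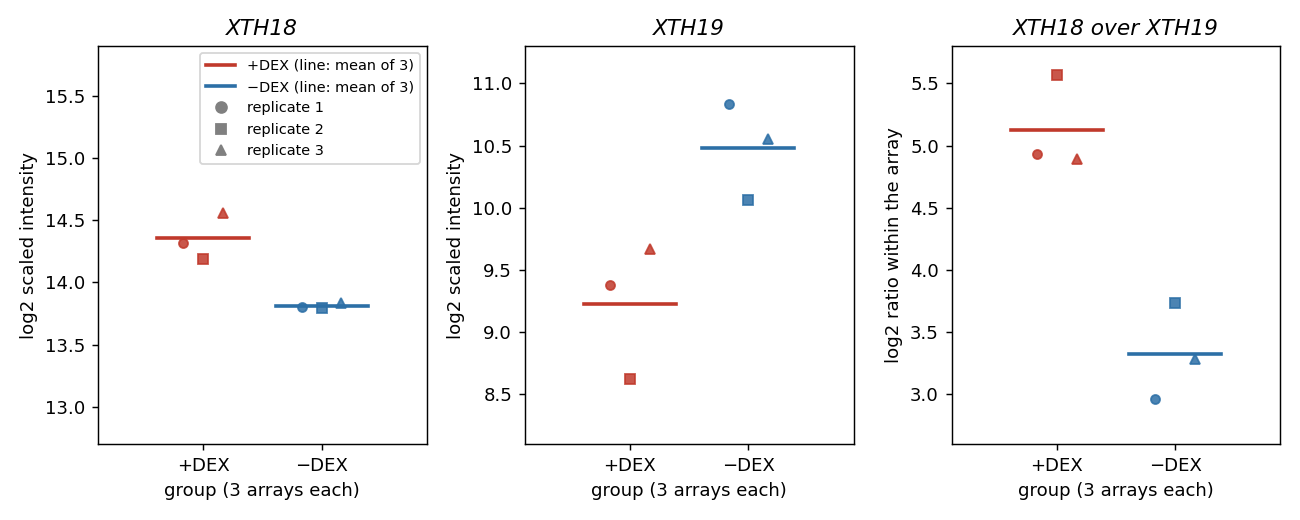
Log2 scaled intensity of XTH18 and XTH19 and the log2 ratio of XTH18 over XTH19 within each array, for 3 +DEX arrays (red) and 3 −DEX arrays (blue), with a line at each mean. The 3 vertical axes span the same number of log2 units and do not start at 0. XTH18 is higher with DEX, XTH19 lower, and the ratio is between 4.89 and 5.56 on the +DEX arrays, against 2.96 to 3.73 on the −DEX arrays.

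Because both neighbours were measured on the same arrays, the ratio of their intensities within an array does not depend on a single scaling factor for that array. The ratio was formed after XTH18 had been seen higher and XTH19 lower, so it restates those values in another form and is given without a test. On the log2 scale it was 4.93, 5.56 and 4.89 on the +DEX arrays, against 2.96, 3.73 and 3.28 on the −DEX arrays. The gap between the lowest +DEX and the highest −DEX array was 1.16. The ratio averaged 5.13 ± 0.38 with DEX and 3.33 ± 0.39 without (SD, n = 3 each), a difference of 1.80, or 3.49-fold, and after quantile normalization the difference was 2.09. XTH18 and XTH19 are similar in sequence, and whether either probe set also bound the other's transcript was not tested.

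Groups without overlap were also common outside the family. All +DEX arrays were lower than all −DEX arrays in 7.55% of tested probe sets and higher in 4.99%, or 12.5% in either direction, against 1 member lower and 1 higher among the 9. Across the 6 arrays XTH18 and XTH19 had a Pearson correlation of −0.65, given as a description of arrays that fall into 2 groups.

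XTH26, a gene known from root hairs, was the next most often detected. Its log2 intensity was 6.85, 6.17 and 7.22 on the +DEX arrays, against 4.995, 6.59 and 6.57 on the −DEX arrays. It lay above background on 3 of 3 +DEX arrays and on 1 of 3 −DEX arrays, and the groups overlapped. The log2 difference was 0.70 ± 0.99 (SE; limma adjusted p = 0.91), and without −DEX replicate 1, where the value was lowest, it was 0.17. The root hair markers EXPA7 and EXPA18 had negative differences, −1.15 and −0.72, but at background.

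XTH20 and XTH21, both known to be expressed in roots, stayed close to background. XTH20 had 6.17, 5.18 and 1.84 on the +DEX arrays, against 5.69, 4.49 and 5.11 on the −DEX arrays. It was above background on 2 of 3 +DEX arrays and on 0 of 3 −DEX arrays, and its lowest value of all was also a +DEX array. XTH21 had 2.45, 1.80 and 5.78 on the +DEX arrays, against 3.28, 3.39 and 2.04 on the −DEX arrays. A single +DEX array, replicate 3, passed background, by 0.041. XTH16 lay under background on all 6 arrays, with a highest value of 3.16 on the +DEX arrays and 2.09 on the −DEX arrays, so it has no measured level in these cells.

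The remaining members belong to the third branch of the family, which holds the known hydrolases. XTH32 is placed in the part of that branch with hydrolase activity, and it lay under background on all 6 arrays. Its values were 3.99, 4.802 and 5.25 on the +DEX arrays, against 6.12, 3.02 and 0.349 on the −DEX arrays. The −DEX arrays spread so widely that they held both the highest and the lowest value. XTH29 lies in the other part of that branch. It had 5.33, 5.24 and 5.16 on the +DEX arrays, against 6.18, 1.94 and 3.99 on the −DEX arrays, and 1 of the 6, +DEX replicate 2, was above background.

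XTH33 differs from most relatives in that its protein carries a predicted membrane anchor. It had 2.63, 6.95 and 7.57 on the +DEX arrays, against 2.22, 4.95 and 6.84 on the −DEX arrays. It was above background on 2 of 3 +DEX arrays and on 1 of 3 −DEX arrays, and both groups held low and high arrays. The log2 difference was 1.05 ± 1.57 (SE; limma adjusted p = 0.92), and it turned to −0.18 without −DEX replicate 1.

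No ratio is given for the members that lay under background on every −DEX array, since their +DEX means did not exceed the background of those arrays. The fitted differences of XTH16, XTH20, XTH21, XTH29 and XTH32 ranged from −0.70 to 1.52, with standard errors from 1.04 (XTH16) to 1.5 (XTH32) and limma adjusted p-values of 0.86 or above. The highest of these differences, 1.52 for XTH32, was 0.109 without −DEX replicate 3. The 95% intervals of these 5 genes all included 0 and were wide, from −1.69 to 4.10 for XTH29 for example, so that changes of several fold in either direction lay within them.

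Counted by array, 4, 6 and 5 of the 9 members were above background on the +DEX arrays, against 2, 2 and 4 on the −DEX arrays. Over all probe sets the share was likewise lowest on −DEX replicates 1 and 2. Above background were 59.1%, 64.6% and 57.0% of tested probe sets on the +DEX arrays, against 51.4%, 46.4% and 61.8% on the −DEX arrays. The background level itself was 5.54, 5.07 and 5.74 on the +DEX arrays, against 6.23, 6.59 and 5.35 on the −DEX arrays, and its part in the counts of members was not tested. On all 6 arrays together 2 of 9 members were above background, and 33.4% of all tested probe sets were.

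Differences were positive in 7 of the 9 members and negative in 2. Their median was 0.54, against a median of −0.10 and 46.1% positive over all tested probe sets. Of the 7 positive members, XTH18 alone was above background on all 6 arrays. The median is the difference of XTH18 itself, and its place in the middle rests mostly on members near background. It describes these members and no common direction of the family.

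**Figure D3:**
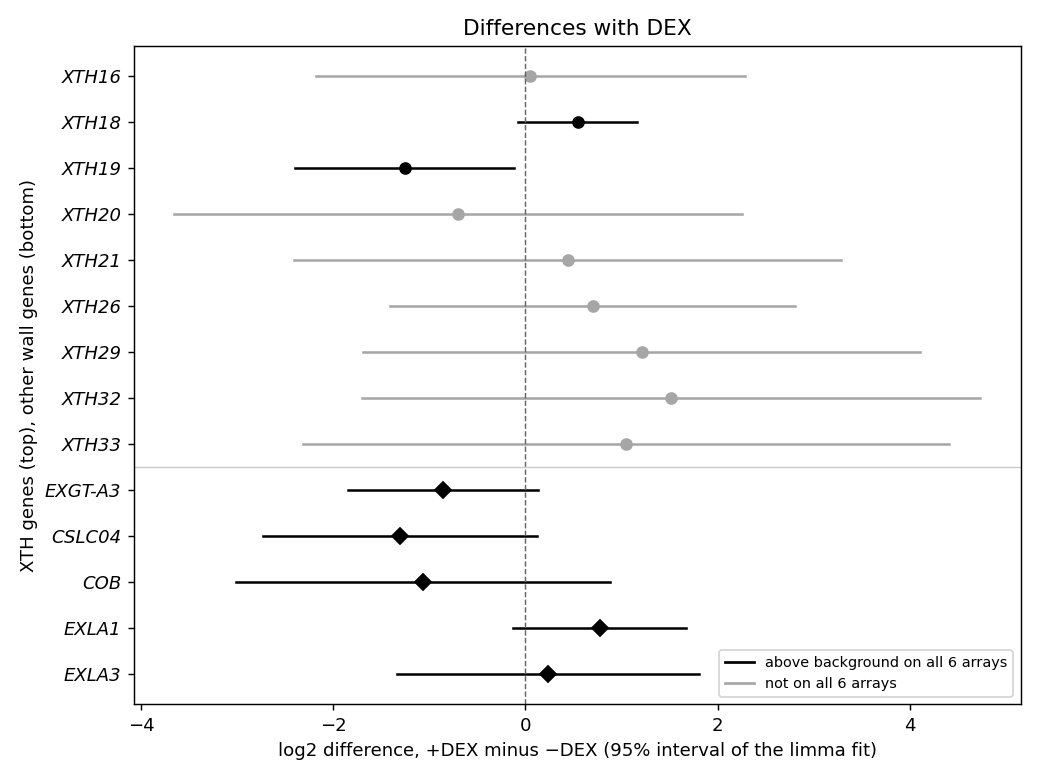
Log2 difference, +DEX minus −DEX (horizontal axis), with its 95% interval from the limma fit, for the 9 XTH genes (circles) and for 5 other wall genes that were above background on all 6 arrays (diamonds). Black marks genes above background on all 6 arrays and grey the rest. Of the 14 intervals, that of XTH19, from −2.39 to −0.12, is the one that does not include 0.

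Other genes of the wall gave a setting for these values. Measured means here that a gene had a probe set named for it alone. As 8730 probe sets were not listed in the annotation, further loci may be on the array without a name. Of the 24 further loci of the family, 1 was measured, EXGT-A3, which encodes XTH27. Its log2 intensity was 11.05, 11.49 and 10.45 on the +DEX arrays, against 11.89, 12.45 and 11.24 on the −DEX arrays, above background throughout. The groups overlapped slightly, and the difference was −0.86 ± 0.46 (SE; limma adjusted p = 0.77). With it, 3 of the measured family transcripts were above background on all 6 arrays. Of these, XTH18 had a positive and XTH19 and EXGT-A3 a negative difference.

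For the making and trimming of xyloglucan, 5 of 19 loci were measured, all of them CSLC genes, which encode the synthases of the glucan backbone. CSLC04, known as the main one of these synthases, was above background on all 6 arrays. It had 7.24, 7.88 and 7.84 on the +DEX arrays, against 8.72, 9.57 and 8.60 on the −DEX arrays, without overlap. Its difference was −1.31 ± 0.67 (SE; limma adjusted p = 0.76). CSLC5 differed by −1.41 ± 1.20 and was above background on 1 of 3 +DEX and 2 of 3 −DEX arrays. Differences were negative in 4 of the 5 genes and positive in 1, their median was −1.31, and 0 passed the threshold.

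Expansins loosen walls without cutting their polymers, and 18 genes of expansins and expansin-like proteins were measured. Differences were positive in 12 and negative in 6, their median was 0.33, and 0 passed the threshold. Above background on all 6 arrays were the expansin-like genes EXLA1, with a difference of 0.77 ± 0.42 (SE), and EXLA3, with 0.24 ± 0.74. EXLA2, singled out after its values were seen because its groups did not overlap, averaged 5.11 with DEX and 6.56 without (limma adjusted p = 0.81). It was above background on 1 of 3 +DEX and 2 of 3 −DEX arrays. For cellulose synthesis 1 of 13 loci was measured, COB, which encodes a protein needed for oriented cellulose deposition, with a difference of −1.07 ± 0.91 (SE; adjusted p = 0.84).

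Of the pectin enzymes, 3 were measured. GAUT15, of a family of galacturonosyltransferases, differed by −0.50 ± 1.05 (SE), and PME61, a pectin methylesterase, lay under background on all 6 arrays. Extensins and arabinogalactan proteins had no named probe set. Altogether 28 wall genes outside the 9 members were measured, with positive differences in 14, negative ones in 14 and a median of −0.03. Past the limma threshold were 0 in either direction, 0 had an unadjusted p under 0.05, and 3 had groups without overlap, all lower with DEX, where 7.55% of all tested probe sets were lower without overlap.

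Among 3953 other named genes above background on all 6 arrays, those whose log2 values followed XTH18 most closely were AT2G22880 (Pearson r = 0.975 over 6 arrays), AT4G10750 (0.972) and nad5 (0.971), a mitochondrial gene for a subunit of respiratory complex I. Their differences with DEX were 0.985, 0.82 and 0.98. AT2G22880, for example, had 12.44, 11.93 and 12.58 on the +DEX arrays, against 11.19, 11.32 and 11.49 on the −DEX arrays. All points share the same 6 arrays and the split into 2 groups, so that a gene higher on every +DEX array scores highly.

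**Figure D4:**
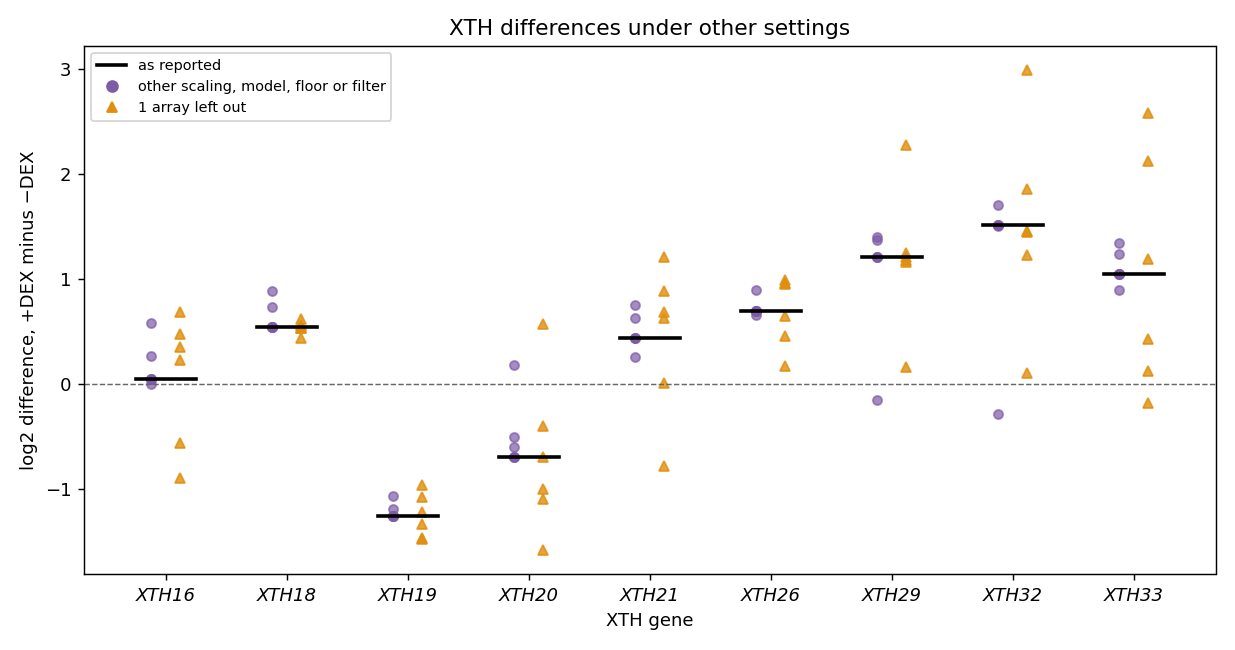
Log2 difference, +DEX minus −DEX (vertical axis), of each XTH gene as reported (black line), under 7 other choices of scaling, variance model, floor, filter or block (purple circles) and with 1 array left out (orange triangles). XTH18 stays between 0.44 and 0.89 and XTH19 between −1.48 and −0.96, while XTH16, XTH20, XTH21, XTH29, XTH32 and XTH33 cross 0.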

How the data were processed

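The data were the linear intensity values that the authors deposited, 1 for each of 22810 probe sets on each array. TRIzol extraction and biotin labelling with a 3′ IVT kit are stated per the labels' protocols. The summary of probes to probe sets is not stated there. All arrays shared a 2% trimmed mean of 500, so the authors had scaled them. Since medians still ran from 66.3 to 92.9, values were scaled to a common median of 79.9, floored at 1 and taken to log2. The 64 Affymetrix controls were left out of the test.

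Groups and replicate numbers came from the titles. The test was limma 3.58.1 in R 4.3.3, with the group as the only term, eBayes with a variance trend, two-sided, and Benjamini-Hochberg adjustment over all 22746 probe sets at 0.05. The code was run on simulated data with less noise than most probe sets showed here. That run checks the code and does not measure the power of the test on these arrays. Gene names came from the array's annotation, with loci from the TAIR10.1 gene table. Of the probe sets, 13513 had 1 named gene, 503 had several and 8730 were not listed. Within each wall list, genes were named if past the threshold, and otherwise as the 2 with the highest mean and the 2 with the smallest p among those above background on all arrays. The members and lists were chosen with earlier results of these data known. Their number, 3 arrays per group, limits the precision. Alternatives covered scaling, the replicate block, the variance model, a floor, a filter, the background level and each array left out.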

Additional observations from a re-analysis of the deposited data

How the results depend on the processing

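Of the 9 members, 0 were called lower and 0 higher in each of the 13 other settings, with a smallest limma adjusted p of 0.46. Of the 28 other wall genes, 0 were likewise called lower and 0 higher in these settings. The filter that removed the dimmest 40% of probe sets left 4 members and 14 wall genes to test. Probe sets lower over the whole table numbered 27, but 0 without the variance trend, 0 with values floored at a log2 of 5, and 0 to 46 with single arrays left out (0 without −DEX replicate 2, 12 without −DEX replicate 1, 46 without −DEX replicate 3, 3 without +DEX replicate 1 and 4 without +DEX replicate 3). None of the settings gave a probe set called higher. The cause was not tested. Of 112 differences of members recomputed, 104 kept their sign or fell to 0. With the floor, XTH20 was at 0.18, XTH29 at −0.15 and XTH32 at −0.29. With single arrays left out, XTH16 ranged from −0.89 to 0.69, XTH20 from −1.59 to 0.58, XTH21 from −0.78 to 1.21, XTH29 from 0.16 to 2.28, XTH32 from 0.11 to 2.995 and XTH33 from −0.18 to 2.59. The difference of the ratio of XTH18 over XTH19, added after seeing the data, ranged from 1.58 to 2.09. The members' median ranged from 0.11 without −DEX replicate 3 to 0.75 after quantile normalization. With the 75th percentile of the Bacillus controls or the highest of them as background, 2 of 9 members were again above it on all arrays. No member had a second probe set, so that alternative was not run. Among probe sets above background, arrays of equal replicate number had deviations from their group means that correlated by 0.022, 0.016 and 0.079. Between unequal numbers the values ran from −0.041 to 0.017, and so few weak values cannot settle whether replicates were paired. The fit with the replicate block called 33 probe sets lower, and in it the adjusted p was 0.77 for XTH18 and 0.70 for XTH19, and no call of a member changed. Signal over background limits all members but XTH18 and XTH19.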
